A study of Homo sapiens with 8 samples.

Results

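The comparison described here is that of C4-2 cells exposed for 24 h to 1 mM phenformin (2 libraries) with C4-2 cells exposed to PBS vehicle (3 libraries), which are 5 of the 8 RNA-seq libraries of the series. Its members are the 11999 genes, of 57773 gene features, that had at least 1 RPKM (a read count divided by exon length in kilobases and by library size) in at least 2 of these 5 libraries. C4-2 is an established prostate cancer cell line derived from LNCaP, and all libraries came from this 1 line, grown in T medium with 5% serum. The other 3 libraries, of cells exposed to 5 mM metformin for 24 h, entered the fit only to share its estimate of the spread. The sample titles and conditions name phenformin and its dose, whereas the treatment text names only PBS and metformin, and the paper does not report the phenformin libraries. No source used here says that replicates were separate cultures, and p-values here rest on a between-library spread that may be no more than technical.

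Phenformin and metformin are biguanides, which inhibit complex I of the mitochondrial respiratory chain. Phenformin is the more lipophilic of the pair and acts at lower concentrations. A fall in respiration raises the ratio of AMP to ATP, which activates AMP-activated protein kinase, and cells commonly answer metabolic stress by phosphorylating eIF2α, which lowers translation and favors the synthesis of the transcription factor ATF4. Respiratory complexes are built from subunits of 2 genomes, since the mitochondrial genome encodes a few core subunits and the nucleus all others.

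The phenformin libraries held 15876543 and 14611068 mapped reads and the PBS libraries 13837455 to 44774670, of which 71.6% to 73.3% and 77.2% to 78.6% lay on genes. This share was lower in both phenformin libraries than in all PBS libraries, and its part in the results was not tested. PBS replicate 1 was the deepest, at 3.00 times the median of the other 4 libraries. It is not a plain sum of the reads of replicates 2 and 3. It had fewer reads than that pair together in 19.8% of the 5595 features with 1 to 5 reads in the pair. Independent (Poisson) sampling at the same rates would give 18.2%, so a pool of RNA sequenced anew would look alike, and this was not tested. The 2 phenformin libraries were close to each other, with differences between them that had an SD of 0.28 on the log2 scale over the genes tested, against 0.20 to 0.27 between PBS libraries. Of the luminal prostate markers, all 7 were above the limit. Of the markers of other cell types, 1 of 6 basal genes (EGFR, 17.7 and 17.9 RPKM with PBS and phenformin), 1 of 7 neuroendocrine genes (DLL3, 3.31 and 2.81 RPKM), 2 of 8 stromal genes and 0 of 7 immune or endothelial genes in the table were high enough to test. The summed level of the stromal markers was 6.16 to 6.95 RPKM with PBS and 8.60 in both phenformin libraries. VIM (0.33) and COL1A1 (1.03) rose. The part of other cells in these results was not tested. The defining markers KRT5, KRT14, TP63, CHGA, PTPRC and CDH5 lay between 0 and 0.201 RPKM in all 5 libraries. The neuroendocrine marker SYP, also under the limit, was at 0.597 to 0.665 RPKM with PBS and 0.197 and 0.254 with phenformin.

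Phenformin was followed by changes in most expressed genes. With limma on log2(RPKM + 0.1), on which changes of low genes appear smaller than they are, 9238 of the 11999 genes (77.0%) passed at an adjusted p under 0.05. Of these, 3723 were higher (31.0% of genes tested) and 5515 were lower (46.0%). At least 2-fold changes were fewer, with 895 genes higher (7.46%) and 2016 lower (16.8%). Both phenformin libraries lay above all PBS libraries in 35.0% of genes and below all in 51.2%. Because the background is this high, the fact that a single gene passed says little, and gene groups are described by the balance of higher and lower genes and by their median beside the median of all genes, -0.16 on the log2 scale. The filter fixes some directions. Of the genes tested, 204 reached 1 RPKM in no PBS library, passed only through the phenformin libraries and had to be higher. Another 1040 reached it in no phenformin library and passed only through the PBS libraries, so that a fall was all but fixed. These include DERL3, ELOVL6, ARRDC4, TP53INP1, SAMHD1, MIR22HG, TMEM198B, RP11-162P23.2 and RP11-804A23.2, named below among the falls. TFB1M, SLC16A3, TAGLN and PCYOX1 had phenformin means under 1 RPKM. Falls counted in lists include such genes. Values after ± are SDs over the 3 PBS or 2 phenformin libraries unless marked SE, and numbers in parentheses after a gene name, where no unit is given, are log2 changes. The median level of the tested genes was 6.01 to 6.13 RPKM in the PBS libraries and 5.65 and 5.78 in the phenformin libraries. With each library centered on its median, 77.3% of genes passed, 4229 higher and 5042 lower. Rescaling each library to a common sum (the TPM scale) moved the median of all genes up by 0.26, to 0.10, and gave 5211 higher and 4011 lower genes, so that the side on which most genes fell depended on the scaling. With the mitochondrially encoded genes left out before rescaling to a common sum, the median was -0.22, with 3459 higher and 5930 lower genes. The plot of change by level sets the groups described first against all genes.

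**Figure D1:**
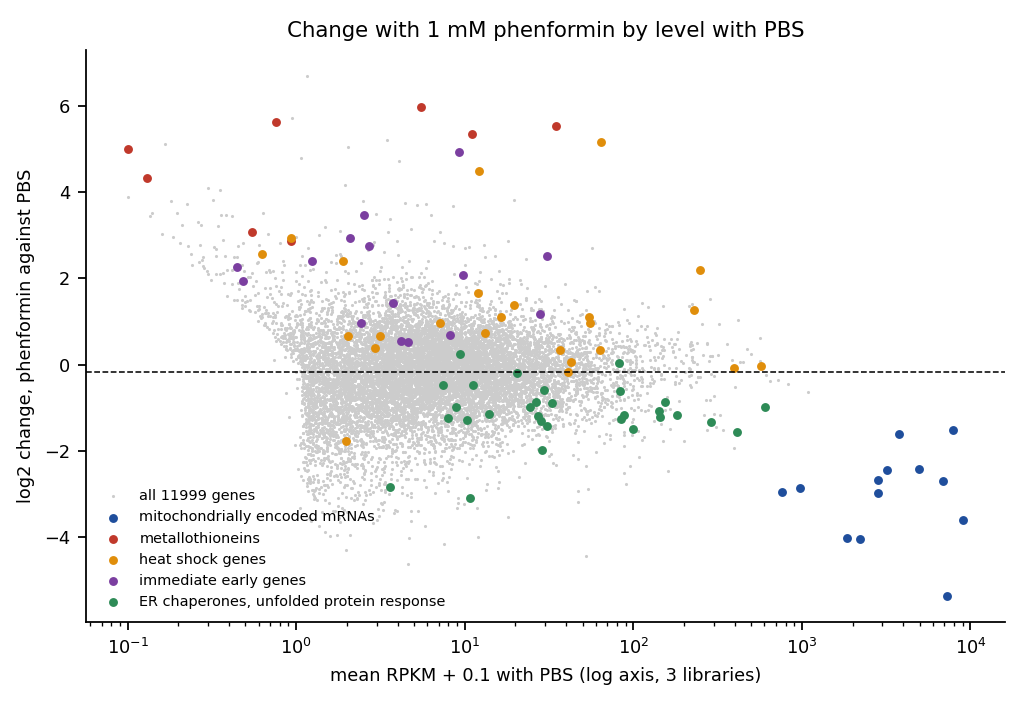
Change with 1 mM phenformin (log2, vertical axis) by mean RPKM + 0.1 with PBS (horizontal log axis) for the 11999 genes tested (grey), with 5 gene groups in color and the median of all genes as a dashed line. The mitochondrially encoded mRNAs, at the right, lie at -1.51 or below, the 8 metallothioneins lie at 2.87 or above, and most endoplasmic reticulum genes lie below the dashed line.

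The 10 most abundant mRNAs with PBS were all encoded by the mitochondrial genome, and all 13 mRNAs of this genome fell with phenformin. These genes encode 7 subunits of complex I, 3 of cytochrome c oxidase (complex IV), cytochrome b of complex III and 2 of ATP synthase. MT-CO3, subunit 3 of cytochrome c oxidase, was at 7425, 7386 and 6939 RPKM with PBS and 172 and 181 with phenformin. The groups were far apart, with a log2 change of -5.36 ± 0.06 (SE; limma, adjusted p = 3.2e-10). MT-CO1, the catalytic subunit of the same complex, was at 9064, 9306 and 8738 RPKM with PBS and 759 and 736 with phenformin, with a log2 change of -3.60 ± 0.07 (SE; limma, adjusted p = 5.1e-09). The complex I subunit MT-ND1 was at 2254, 2325 and 2056 RPKM with PBS and 135 and 134 with phenformin. MT-ND3, of the same complex, was at 1880.5, 1881 and 1778 RPKM with PBS and 116 and 112 with phenformin. Both fell, with log2 changes of -4.04 and -4.02. The fall was uneven among the 13, which are transcribed as long polycistronic RNAs and then cut apart. It was smallest for MT-CO2, at 8068, 8153 and 7478 RPKM with PBS and 2760.2 and 2791 with phenformin. MT-ND2 was next, at 3811, 4082 and 3432 RPKM with PBS and 1229 and 1229 with phenformin. In both genes the groups did not overlap, with log2 changes of -1.51 and -1.62. MT-ATP6, MT-ATP8, MT-CYB, MT-ND4, MT-ND4L, MT-ND5 and MT-ND6 lay between, from -2.41 (MT-ND4) to -2.97 (MT-ATP8). MT-ND6, transcribed from the strand opposite to the others, had a log2 change of -2.95, within the range of the others. The share of all mapped reads on these 13 genes was 4.77% to 5.21% with PBS and 0.771% in both phenformin libraries. The ribosomal RNA genes MT-RNR1 and MT-RNR2 were listed at 0 in every library. The median change of the 13 was -2.86, or -2.69 relative to all genes, with 13 of 13 lower as deposited, after centering and on the TPM scale, but 11 lower and 2 (MT-CO2 and MT-ND2) higher under quantile normalization, which ties the highest ranks of all libraries to the same values. Fewer cells and less RNA per cell cannot be told apart in these values, nor can fewer mitochondrial genomes from fewer transcripts of each.

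**Figure D2:**
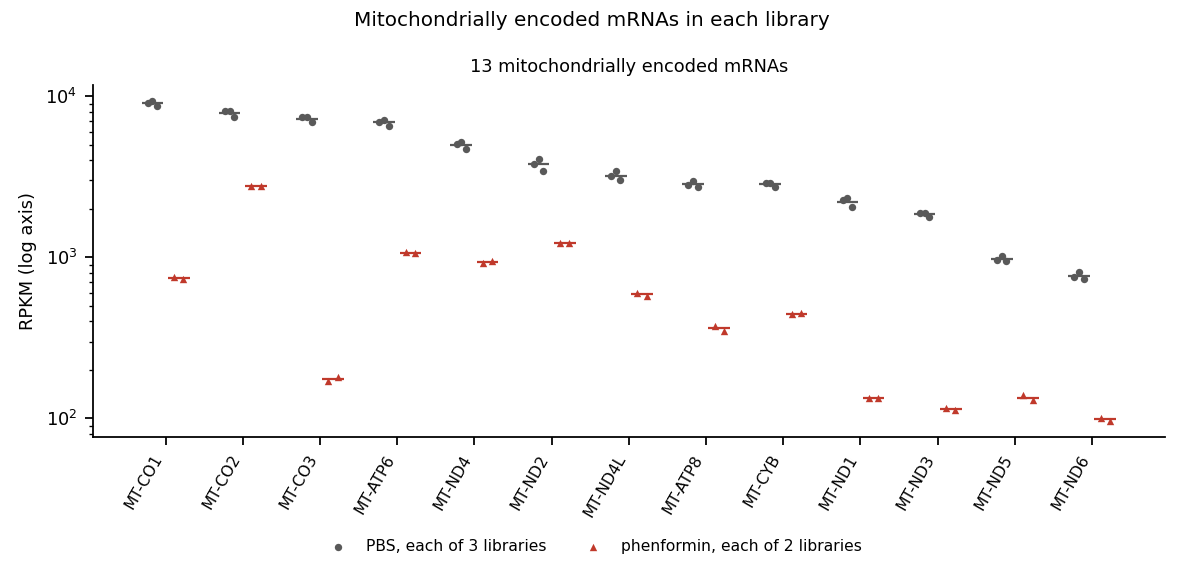
RPKM (vertical log axis) of the 13 mitochondrially encoded mRNAs, ordered by their level with PBS, in each of 3 PBS libraries (circles) and 2 phenformin libraries (triangles), with horizontal lines at group means. In every gene both phenformin libraries lie below all PBS libraries, with the widest gap in MT-CO3 and the narrowest in MT-CO2.

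The nuclear genes for the same complexes moved the other way on balance. Of 35 tested genes for complex I subunits, 21 rose and 4 (NDUFB9, NDUFC2, NDUFS1 and NDUFV3) fell, with a median of 0.26. NDUFA1, a membrane-arm subunit, was at 113, 109.6 and 109.7 RPKM with PBS and 208 and 207 with phenformin. NDUFC1, another subunit of that arm, was at 25.8, 24.98 and 25.1 RPKM with PBS and 45.3 and 46.9 with phenformin. Both were higher in each phenformin library, with log2 changes of 0.90 and 0.87. NDUFS1, the largest core subunit of the matrix arm, fell from 13.5 ± 0.575 to 8.11 ± 0.193 RPKM (SD, n = 3 and 2), and NDUFC2, of the membrane arm, fell from 7.01 to 3.84 RPKM. Of 36 genes for complexes II to V, 21 rose, led by UQCRB of complex III (14.1 to 29.4 RPKM) and ATP5I and ATP5J of ATP synthase (0.89 and 0.71), and 8 fell. COX4I1, a nuclear subunit of cytochrome c oxidase, was at 74.2 ± 2.17 RPKM with PBS and 74.6 ± 3.89 with phenformin (log2 change 0.01, limma, adjusted p = 0.925). The changes of the nuclear genes were small beside those of the mitochondrial mRNAs, with extremes of -0.85 and 1.15 for complex I. Among 18 nuclear genes that maintain and express mitochondrial DNA, 5 (TFAM, POLRMT, POLG, SLIRP and NRF1) rose and 8 fell. TFB2M, a factor that the mitochondrial RNA polymerase needs to start transcription, was at 20.9, 20.1 and 21.7 RPKM with PBS and 3.17 and 3.56 with phenformin. It was far lower in both phenformin libraries, with a log2 change of -2.60 ± 0.08 (SE; limma, adjusted p = 3.1e-08). TFB1M, a methyltransferase of mitochondrial ribosomal RNA, fell from 2.29 to 0.759 RPKM. SLIRP, which stabilizes mitochondrial mRNAs, rose from 21.97 ± 0.129 to 47.96 ± 1.46 RPKM, and POLG, the catalytic subunit of the mitochondrial DNA polymerase, from 11.6 to 20.6 RPKM. For this list the balance turned with the scaling, to 8 higher and 7 lower after centering. Of 15 genes for mitochondrial chaperones and proteases, 4 rose, namely the proteases LONP1 (1.01) and SPG7 (0.23) and the chaperones HSPA9 (0.48) and HSPD1 (0.37), of which SPG7 did not pass without phenformin replicate 2 (adjusted p = 0.0993), and 7 fell, among them OMA1 (-1.03), which cleaves factors of the inner membrane under stress, but on the TPM scale 7 were higher and 3 lower.

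Metallothioneins, small cysteine-rich proteins that bind zinc and copper, had some of the largest rises of all genes. MT1F was at 5.57, 4.63 and 6.01 RPKM with PBS and 332 and 357 with phenformin. MT2A was at 37.7, 33.9 and 32.9 RPKM with PBS and 1523 and 1680.4 with phenformin. MT1X was at 14.4, 7.55 and 10.99 RPKM with PBS and 441 and 433 with phenformin. In all 3 the phenformin libraries stood well above every PBS library, with log2 changes of 5.98, 5.52 and 5.35 (limma, adjusted p = 1.0e-08, 1.3e-08 and 3.1e-07). MT1G was low and uneven with PBS, at 0.566, 0.0964 and 1.31 RPKM with PBS and 26.7 and 29.02 with phenformin. MT1A and MT1H rose from 0.829 to 7.44 RPKM and from 0.0309 to 2.47 RPKM, and MT1B was listed at 0 with PBS and at 3.48 and 2.70 RPKM with phenformin. MT1H and MT1B passed only through the phenformin libraries and had to be higher. All 8 tested metallothionein features rose, MT1DP, a transcribed pseudogene, included, although MT1DP did not pass with a pseudocount of 0.01 (adjusted p = 0.0946) or with replicate numbers as a block (adjusted p = 0.0552). With either phenformin library left out, 5 of the 8 were high enough to test, and all 5 rose. Their summed level went from 48.1, 52.1 and 59.5 RPKM in the PBS libraries to 2336 and 2519 in the phenformin libraries. MT1E and MT1M stayed under the limit, at or below 0.130 RPKM. These genes are close copies of each other, so reads may be shared among them. Among the zinc transporter genes 1 rose and 10 fell. SLC30A1, which exports zinc across the plasma membrane, was at 8.50, 8.32 and 8.56 RPKM with PBS and 107 and 109.7 with phenformin. It rose in both libraries, with a log2 change of 3.66 ± 0.05 (SE; limma, adjusted p = 1.0e-09), whereas the other 4 tested SLC30 genes, of exporters in inner membranes, and all 6 tested SLC39 genes, of importers into the cytosol, fell. SLC39A6 and SLC39A10, importers at the cell surface, fell from 72.3 ± 2.68 to 21.97 ± 0.521 RPKM and from 11.6 ± 0.203 to 2.64 ± 0.00619 RPKM. SLC39A7, which releases zinc from the endoplasmic reticulum, fell from 78.8 ± 2.89 to 38.9 ± 1.31 RPKM. The directions of all these genes were the same under each scaling.

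Metallothionein genes and SLC30A1 are textbook targets of MTF-1, a zinc-sensing transcription factor that binds metal response elements with the core TGCACNC or TGCGCNC. The 200 bases before the RefSeq start of MT2A (chr16:56608384-56608583, plus strand), MT1X (chr16:56682270-56682469, plus strand) and SLC30A1 (chr1:211579162-211579361, minus strand) are shown 5′ to 3′ on the strand of the gene, from GRCh38.p14, a later build than that of the deposited values. They lie directly upstream of the first transcribed base, outside the exons. They are shown because these genes rose together, and capitals mark matches to the core on either strand.
MT2A: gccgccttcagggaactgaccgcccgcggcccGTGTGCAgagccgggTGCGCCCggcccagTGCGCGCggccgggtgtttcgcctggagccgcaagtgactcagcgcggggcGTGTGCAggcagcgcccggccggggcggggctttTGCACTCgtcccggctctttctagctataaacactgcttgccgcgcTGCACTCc
MT1X: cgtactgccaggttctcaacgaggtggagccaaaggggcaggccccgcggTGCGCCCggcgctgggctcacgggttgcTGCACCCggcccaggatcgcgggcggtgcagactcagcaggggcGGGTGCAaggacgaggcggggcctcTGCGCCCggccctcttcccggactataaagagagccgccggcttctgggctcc
SLC30A1: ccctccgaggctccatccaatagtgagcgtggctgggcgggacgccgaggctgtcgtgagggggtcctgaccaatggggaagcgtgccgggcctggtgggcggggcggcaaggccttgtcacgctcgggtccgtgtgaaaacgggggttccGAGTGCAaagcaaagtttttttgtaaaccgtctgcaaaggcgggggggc
MT2A held 6 matches, MT1X 4 and SLC30A1 1, the nearest to the start at position -8, -53 and -49. At least 1 match was found in 21.4% of all 35116 RefSeq promoter windows of this length and at least 3 in 1.05%. All 4 risen metallothionein genes with an entry (MT1B, MT1H, MT1X and MT2A) held at least 3, but the rise of MT1B and MT1H was fixed by the filter. Of 10 zinc transporter genes with an entry 3 held at least 1, of which SLC30A1 rose and SLC30A6 and SLC39A6 fell. A match is a run of letters only, and binding was not measured.

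Heat shock genes rose in 19 of 24 tested and fell in 2 (HSPA1L, -1.76, and HSPA4, -0.17), of which HSPA4 was at 0.09 on the TPM scale (adjusted p = 0.0748). HSPA1B, the inducible HSP70, was at 68.3, 66.4 and 57.95 RPKM with PBS and 2212 and 2369.8 with phenformin. It became the second most abundant mRNA of the phenformin libraries after MT-CO2, with a log2 change of 5.16 ± 0.08 (SE; limma, adjusted p = 1.1e-09). Its near-identical copy HSPA1A was listed at 0.225 to 0.835 RPKM in the 5 libraries, so reads of both may be assigned to HSPA1B. DNAJB1, the J-domain partner of HSP70, was at 12.2, 11.99 and 11.9 RPKM with PBS and 267 and 279 with phenformin. HSPB1, the small heat shock protein HSP27, was at 269.7, 261 and 215 RPKM with PBS and 1066 and 1201 with phenformin. In both the groups were far apart, with log2 changes of 4.50 and 2.19 (limma, adjusted p = 3.2e-10 and 3.2e-07). The small heat shock proteins CRYAB and HSPB8 rose from 1.78 to 9.75 RPKM and from 0.528 to 3.599 RPKM, and DNAJB4 from 0.836 to 6.57 RPKM. The abundant constitutive chaperones did not pass the test. HSPA8 was at 398 ± 4.08 RPKM with PBS and 377 ± 0.528 with phenformin (log2 change -0.08, limma, adjusted p = 0.174). HSP90AB1 was at 571 ± 10.1 RPKM with PBS and 562 ± 14.4 with phenformin (log2 change -0.02, limma, adjusted p = 0.736). On the TPM scale both were higher, by 0.19 and 0.24 (limma, adjusted p = 0.00407 and 0.0014). HSF1, the transcription factor that induces these genes, rose from 13.03 ± 1.26 to 21.8 ± 1.46 RPKM. The median change of the list was 0.97, or 1.13 relative to all genes. HSPB8 passed only through the phenformin libraries, and with either of these left out 18 of 23 genes rose.

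Heat shock elements consist of inverted repeats of the 5 bases NGAAN. The 200 bases before the starts of HSPA1B (chr6:31827538-31827737, plus strand) and CHORDC1 (chr11:90223050-90223249, minus strand), a co-chaperone of HSP90 that went from 11.9 to 37.7 RPKM (1.66), were chosen after their values and matches were seen and show 1 and several elements, with capitals at matches to GAANNTTC or TTCNNGAA, which read the same on both strands.
HSPA1B: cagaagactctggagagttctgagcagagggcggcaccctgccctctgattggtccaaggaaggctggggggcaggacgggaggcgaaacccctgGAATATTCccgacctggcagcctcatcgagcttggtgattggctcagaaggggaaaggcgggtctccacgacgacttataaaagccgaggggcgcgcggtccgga
CHORDC1: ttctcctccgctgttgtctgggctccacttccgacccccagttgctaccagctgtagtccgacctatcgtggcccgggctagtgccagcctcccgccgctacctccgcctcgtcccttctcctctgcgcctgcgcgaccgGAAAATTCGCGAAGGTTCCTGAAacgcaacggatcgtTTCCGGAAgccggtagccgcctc
HSPA1B held 1 match, at position -105, and CHORDC1 held 5, of which 4 overlap in a run that starts at position -60. At least 1 match was found in 9.14% of all promoter windows and at least 3 in 0.0911%. Of 21 tested heat shock genes with an entry, 14 held a match in the window of at least 1 of their starts, and 11 of these were among the 16 that rose. The shares above count each window singly, whereas a gene with several starts had several windows, so these counts are not on the same footing. HSPA8 and HSP90AB1, neither of which passed the test, held matches as well (2 and 4), so that these letters were shared by genes that rose and genes that did not pass.

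Immediate early genes, which are transcribed within minutes of many stimuli without new protein synthesis, were higher at 24 h. All 15 tested members rose, of 25 written, the remaining 10 being under the limit, but FOS and MAFF passed only through the phenformin libraries and had to be higher. With either phenformin library left out, 13 could be tested and all 13 rose. JUN, a subunit of the AP-1 transcription factor, was at 9.39, 9.12 and 8.98 RPKM with PBS and 264 and 297 with phenformin. The zinc finger factor KLF6 was at 2.45, 2.39 and 2.47 RPKM with PBS and 27.9 and 27.8 with phenformin. The orphan nuclear receptor NR4A1 was at 2.09, 2.09 and 1.77 RPKM with PBS and 15.3 and 16.2 with phenformin. In each the phenformin libraries lay above all PBS libraries, with log2 changes of 4.92, 3.46 and 2.93 (limma, adjusted p = 4.5e-10, 4.7e-10 and 6.7e-08). JUND and KLF4 rose by 2.52 and 2.76 on the log2 scale. FOSB, FOSL1 and EGR1, which are classical members of this group, were not above 0.261 RPKM in any of the 5 libraries. Among dual-specificity phosphatases, which inactivate MAP kinases, DUSP1 had the largest rise of all genes whose higher group reached 5 RPKM, at 0.918, 1.43 and 0.844 RPKM with PBS and 114 and 120.1 with phenformin, with a log2 change of 6.68 ± 0.17 (SE; limma, adjusted p = 1.5e-08). DUSP2, DUSP5, DUSP8, DUSP10 and DUSP16 rose too, by 1.18 (DUSP16) to 3.81 (DUSP5, which passed only through the phenformin libraries), whereas DUSP4 and DUSP7 fell (-0.44 and -1.17), of which DUSP4 did not pass on the TPM scale (adjusted p = 0.126). The 4 ID genes, whose products block basic helix-loop-helix factors, had log2 changes of 3.03 (ID4) to 4.71 (ID3), and with either phenformin library left out 3 of the 4 were high enough to test and rose. ID3 was at 3.95, 4.14 and 3.79 RPKM with PBS and 99.6 and 113 with phenformin. Of 25 genes of TGF-β and BMP signaling, which the ID genes answer to, 15 rose and 6 fell (12 and 5 without either phenformin library, SMAD7 and ID4 being then under the limit), the receptor TGFBR1 among the latter (4.63 to 1.60 RPKM), while SMAD2 was at 6.28 and 6.46 RPKM (limma, adjusted p = 0.527).

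**Figure D3:**
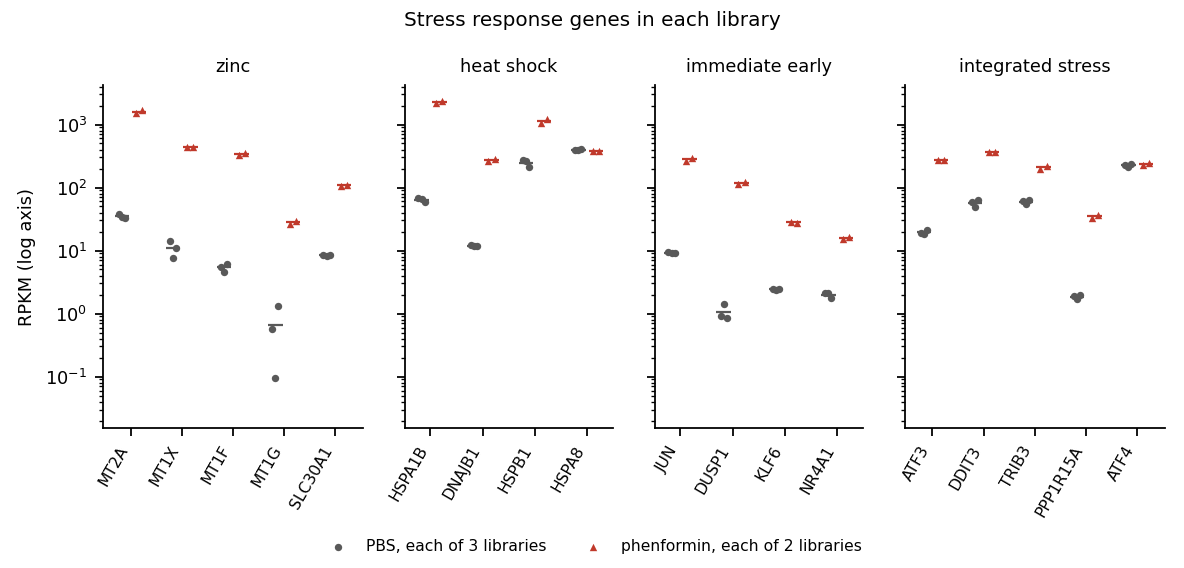
RPKM (vertical log axis) of zinc, heat shock, immediate early and integrated stress response genes in each of 3 PBS libraries (circles) and 2 phenformin libraries (triangles), with horizontal lines at group means. HSPA8 and ATF4 did not pass the test, while the phenformin libraries lie above all PBS libraries in every other gene shown.

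Genes of the integrated stress response rose in 14 of 23 tested and fell in 5 (VLDLR, STC2 and the eIF2α kinases EIF2AK1, EIF2AK3 and EIF2AK4). ATF3 was at 19.3, 18.1 and 21.3 RPKM with PBS and 269.9 and 278 with phenformin. DDIT3, which encodes the pro-apoptotic factor CHOP, was at 58.1, 49.5 and 63.4 RPKM with PBS and 369.7 and 372 with phenformin. TRIB3, a pseudokinase that CHOP induces, was at 60.5, 54.7 and 63.2 RPKM with PBS and 199 and 218 with phenformin. The groups did not overlap in any of the 3, with log2 changes of 3.81, 2.71 and 1.81. PPP1R15A (GADD34), the phosphatase subunit that reverses eIF2α phosphorylation, rose from 1.86 ± 0.154 to 34.9 ± 2.54 RPKM, and its constitutive counterpart PPP1R15B from 0.256 to 3.83 RPKM. PPP1R15B passed only through the phenformin libraries and had to be higher. Of the other 22 genes, 12 rose with either phenformin library left out, and the median change of the list went from 0.92 to 0.69 and 0.64. ATF4, which is controlled mainly at translation, was at 228 ± 13.5 RPKM with PBS and 238 ± 10.7 with phenformin (log2 change 0.06, limma, adjusted p = 0.488). CHAC1, a glutathione-degrading enzyme and a target of this pathway, was at 18.5 ± 0.399 RPKM with PBS and 17.2 ± 0.580 with phenformin (log2 change -0.11, limma, adjusted p = 0.289). The genes that supply amino acids are another arm of this response. Of 17 amino acid transporter genes 14 fell and 1 (SLC3A2) rose. The cystine transporter SLC7A11 was at 42.8, 44.6 and 47.1 RPKM with PBS and 14.5 and 15.5 with phenformin. Its partner SLC3A2, the heavy chain shared by several transporters, was at 64.3, 61.5 and 61.9 RPKM with PBS and 202 and 211 with phenformin. The light chain was lower and the heavy chain higher in both phenformin libraries, with log2 changes of -1.57 and 1.72, and SLC7A6, another light chain, fell from 7.95 to 1.24 RPKM. The glutamine transporter SLC38A1 fell from 54.5 to 22.9 RPKM, while SLC38A2 was at 114 ± 2.74 RPKM with PBS and 105 ± 0.710 with phenformin (log2 change -0.12, limma, adjusted p = 0.0875). Among 20 cytosolic aminoacyl-tRNA synthetases 7 rose, such as YARS (28.4 to 69.8 RPKM) and AARS (107 to 233 RPKM), and 8 fell, such as WARS (-0.86) and NARS (-0.81), with GARS at 103 and 105 RPKM, but 9 were higher and 5 lower after centering. Of 18 genes of serine, asparagine, proline and one-carbon synthesis 6 rose and 10 fell, but 8 were higher and 5 lower on the TPM scale. PHGDH, which commits glycolytic carbon to serine, was at 67.2 ± 1.52 RPKM with PBS and 65.2 ± 2.89 with phenformin (log2 change -0.05, limma, adjusted p = 0.515), PSPH of the same pathway rose by 0.51, and ALDH1L2, a mitochondrial folate enzyme, fell from 5.13 to 1.34 RPKM.

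Genes of the endoplasmic reticulum fell nearly throughout, although DDIT3 and TRIB3 rose. Of 30 genes for its chaperones, degradation factors and unfolded protein response, 28 fell and 1 rose (ERN1, 0.24, which encodes the sensor IRE1), with a median of -1.15, or -0.99 relative to all genes. HSPA5 (BiP), the main chaperone of this compartment and a standard readout of its stress response, was at 408, 378 and 442 RPKM with PBS and 138 and 139 with phenformin. HYOU1, its nucleotide exchange factor, was at 99.3, 96.2 and 101 RPKM with PBS and 34.9 and 35.4 with phenformin. Both phenformin libraries lay below all PBS libraries, with log2 changes of -1.56 and -1.49 (limma, adjusted p = 1.9e-07 and 1.6e-08). The derlin genes DERL1 and DERL3, of the channel that exports misfolded proteins, fell from 10.6 to 1.18 RPKM and from 3.52 to 0.406 RPKM, DNAJC3, an inhibitor of the eIF2α kinases, from 28.7 to 7.24 RPKM, and SEL1L, the adaptor of a ubiquitin ligase, from 30.5 to 11.4 RPKM. XBP1, the factor spliced by IRE1, was at 82.02 ± 2.05 RPKM with PBS and 84.1 ± 1.52 with phenformin (log2 change 0.04, limma, adjusted p = 0.449). Among 32 genes whose products move proteins into this compartment or attach N-glycans, 27 fell and 4 rose (SEC61G, SRP9, SRP14 and SRPR). SRPR did not pass without phenformin replicate 1 (adjusted p = 0.118). SEC61A1, the channel itself, was at 117, 118 and 113 RPKM with PBS and 37.7 and 35.5 with phenformin. RPN2, a subunit of the oligosaccharyltransferase, was at 153, 154 and 145 RPKM with PBS and 43.7 and 45.3 with phenformin. SEC61A1 and RPN2 had log2 changes of -1.66 and -1.76, and STT3A, the catalytic subunit of that enzyme, of -1.79. SPCS3, of the signal peptidase, fell from 14.5 to 4.08 RPKM, while SRP68, of the cytosolic recognition particle, was at 14.4 and 14.2 RPKM (limma, adjusted p = 0.834). Both lists kept their balance under each scaling.

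**Figure D4:**
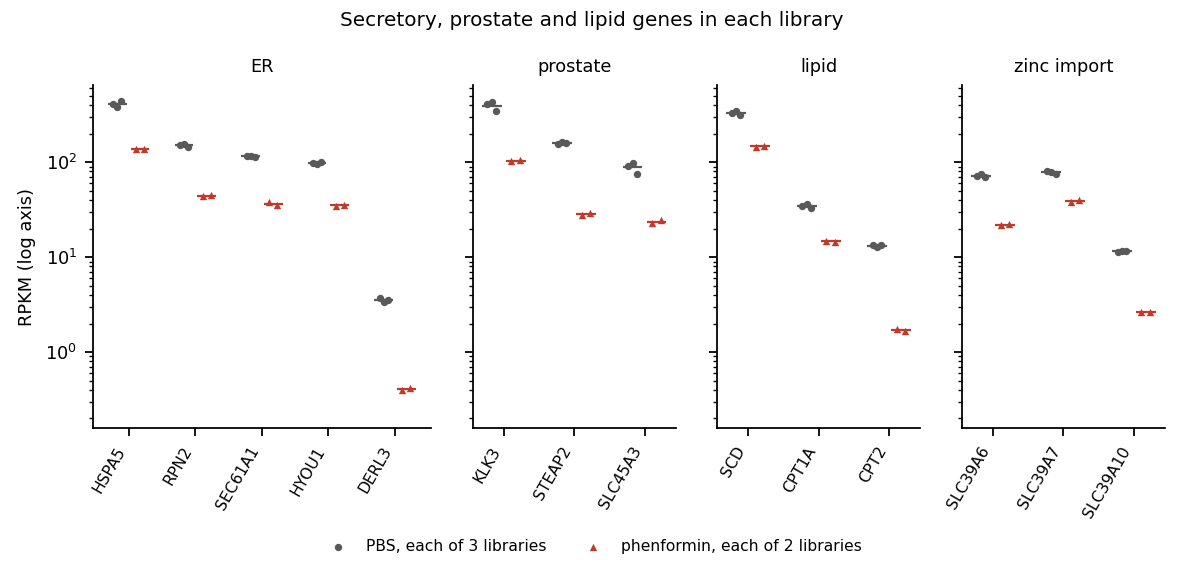
RPKM (vertical log axis) of endoplasmic reticulum (ER), prostate, lipid and zinc importer genes in each of 3 PBS libraries (circles) and 2 phenformin libraries (triangles), with horizontal lines at group means. In each of the 14 genes both phenformin libraries lie below all PBS libraries.

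Prostate lineage genes fell in 15 of 21 tested and rose in 3 (FOXA1, GATA2 and ZBTB16). KLK3, the gene for prostate-specific antigen, was at 407, 429 and 349 RPKM with PBS and 102 and 106 with phenformin. The groups did not overlap, with a log2 change of -1.92 ± 0.09 (SE; limma, adjusted p = 2.5e-07). The metalloreductase STEAP2, the transporters ABCC4 and SLC45A3 and the channel TRPM8 fell from 159.7 to 28.8 RPKM, from 52.3 to 10.3 RPKM, from 87.98 to 23.6 RPKM and from 12.6 to 3.42 RPKM. The androgen-regulated genes TMPRSS2 and FKBP5 did not pass the test. TMPRSS2 was at 93.2 ± 8.26 RPKM with PBS and 85.3 ± 1.27 with phenformin (log2 change -0.12, limma, adjusted p = 0.151). FKBP5 was at 18.5 ± 1.36 RPKM with PBS and 18.8 ± 0.392 with phenformin (log2 change 0.03, limma, adjusted p = 0.751). The list's median change was -0.88, or -0.72 relative to all genes. Among the luminal markers, FOXA1, a pioneer transcription factor, rose from 74.2 ± 0.536 to 137 ± 5.82 RPKM, and KRT18 by 0.40, KRT8 was at 40.1 and 42.1 RPKM (limma, adjusted p = 0.426), and HOXB13 fell from 65.9 to 38.4 RPKM.

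Lipid genes were lower on balance. Of 24 genes of cholesterol synthesis and uptake 16 fell and 3 rose (IDI1, MVK and FDFT1), but 12 were lower and 7 higher on the TPM scale. FDFT1 did not pass when PBS replicate 1 or 2 or either phenformin library was left out (adjusted p = 0.0544 to 0.126). SQLE, squalene epoxidase, was at 18.4, 18.4 and 17.9 RPKM with PBS and 7.51 and 7.96 with phenformin. LSS, which makes lanosterol, was at 20.1, 19.9 and 17.6 RPKM with PBS and 7.57 and 8.45 with phenformin. The phenformin libraries were lower in each, with log2 changes of -1.23 and -1.25. IDI1, an isomerase of the same pathway, rose from 10.6 ± 0.0754 to 27.99 ± 0.570 RPKM, and HMGCS1 was at 25.6 ± 0.202 RPKM with PBS and 23.6 ± 0.200 with phenformin (log2 change -0.11, limma, adjusted p = 0.0798). SREBF2, the gene of the factor that drives this pathway, fell from 47.8 to 35.9 RPKM, whereas SREBF1, which drives fatty acid synthesis, rose from 47.97 to 65.7 RPKM. In fatty acid synthesis 15 of 19 genes were lower, including the desaturase SCD (328 to 147 RPKM) and the elongase ELOVL6 (1.49 to 0.179 RPKM), and 3 rose, namely SREBF1, ACSS2 and FASN. FASN, the synthase itself, was at 112, 114 and 89.8 RPKM with PBS and 179 and 188 with phenformin. Of 20 genes of fatty acid oxidation 15 fell and 1 rose (ACAA1, 0.37), but 9 were lower and 4 higher on the TPM scale. CPT1A and CPT2, the carnitine palmitoyltransferases of the outer and inner mitochondrial membrane, bring long fatty acids into the matrix. CPT1A was at 34.5, 36.3 and 32.7 RPKM with PBS and 14.7 and 14.6 with phenformin. CPT2 was at 13.4, 12.8 and 13.4 RPKM with PBS and 1.74 and 1.65 with phenformin. Both were lower in each phenformin library, with log2 changes of -1.23 and -2.89, while ECHS1 and ACADVL of the later steps were at 127 and 123 RPKM and at 78.6 and 72.4 RPKM (limma, adjusted p = 0.525 and 0.0567).

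In glycolysis and glucose uptake 15 of 23 genes fell and 2 rose (PFKL and PFKFB3), but 10 were lower and 7 higher on the TPM scale. The glucose transporter SLC2A1 fell from 14.7 ± 0.807 to 8.50 ± 0.0304 RPKM, the lactate exporter SLC16A3 from 2.68 to 0.847 RPKM and PFKFB2 from 10.9 to 4.120 RPKM, whereas PFKFB3, which also makes an activator of phosphofructokinase, rose from 3.07 to 5.71 RPKM. The abundant enzymes GAPDH, LDHB and TPI1 differed by at most 0.08 on the log2 scale in either direction and did not pass the test. Among 26 genes of the TCA cycle and pyruvate use, 5 rose (PC, PDHB, SUCLG1, SDHA and MPC2) and 14 fell, but 11 were higher and 8 lower on the TPM scale. SUCLG1 did not pass without phenformin replicate 2 (adjusted p = 0.052). The pyruvate dehydrogenase kinases PDK1, PDK2 and PDK3, which shut pyruvate out of the cycle, fell (-0.54, -1.87 and -2.19), of which PDK1 did not pass on the TPM scale (adjusted p = 0.0556). Of 28 genes of AMPK and mTORC1 regulation 11 rose and 10 fell, but 16 were higher and 5 lower on the TPM scale, 13 and 8 after centering, and 10 and 12 with the mitochondrially encoded genes left out. The AMPK subunit genes PRKAA1, PRKAB1, PRKAB2, PRKAG1 and PRKAG2 fell by 0.17 (PRKAB1) to 0.84 (PRKAG2) on the log2 scale, but on the TPM scale PRKAB1 and PRKAG1 were at 0.10 and 0.03 (limma, adjusted p = 0.221 and 0.651), and PRKAB1 did not pass with any 1 library left out (adjusted p = 0.0559 to 0.18). PRKAA2 was at 1.64 ± 0.0899 RPKM with PBS and 1.98 ± 0.0965 with phenformin (log2 change 0.26, limma, adjusted p = 0.0581). CAMKK2, a kinase that activates AMPK and an androgen target in prostate cells, was at 23.7, 24.1 and 22.8 RPKM with PBS and 8.10 and 8.24 with phenformin. RRAGC and FLCN signal amino acid supply to mTORC1 at the lysosome. RRAGC was at 8.58, 8.38 and 8.80 RPKM with PBS and 35.7 and 38.5 with phenformin. FLCN was at 5.97, 5.89 and 5.51 RPKM with PBS and 20.6 and 21.3 with phenformin. Both rose, with log2 changes of 2.10 and 1.84, while MTOR was at 9.97 and 10.3 RPKM (limma, adjusted p = 0.43). Of 22 genes of insulin and PI3K signaling 8 rose, led by IRS2 (1.61 to 8.65 RPKM), and 10 fell, led by PIK3R3 (10.99 to 2.99 RPKM), but 12 were higher and 10 lower on the TPM scale. Fewer of these genes were above the limit with either phenformin library left out, so the filter may have fixed a rise among them. Of 5 tested genes of the MondoA glucose sensor and its arrestin targets, 3 rose (ARRDC3, from 3.92 to 23.4 RPKM, MLXIP and MLX) and 1 fell (ARRDC4, from 1.08 to 0.299 RPKM). ARRDC4 did not pass under quantile normalization (adjusted p = 0.0547), and MLX not when PBS replicate 1 or 2 or either phenformin library was left out (adjusted p = 0.0575 to 0.117). TXNIP, the best known target of MondoA, was under the limit, at 0.259 to 0.398 RPKM with PBS and 0.764 and 1.02 with phenformin.

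Of 25 antioxidant genes 12 rose, such as HMOX1 (5.63 to 15.9 RPKM) and SRXN1 (3.50 to 9.18 RPKM), which encode heme oxygenase and sulfiredoxin, and 9 fell, such as FTL (-0.52), the ferritin light chain. On the TPM scale 16 of the antioxidant genes were higher and 4 lower. NFE2L2, the gene of their activator NRF2, rose by 0.40. Hypoxia genes had 5 higher (HIF1A, VEGFA, P4HA2, KDM3A and BHLHE40) and 8 lower of 17, and 6 and 5 on the TPM scale, with BHLHE40 at 18.2 to 71.7 RPKM, P4HA1 at 25.05 to 11.4 RPKM and HIF1A at 24.1 to 29.7 RPKM, each from PBS to phenformin. Of 35 autophagy and lysosome genes 14 rose, among them the receptor SQSTM1 (48.3 to 108 RPKM) and the kinase ULK1 (6.14 to 14.2 RPKM), and 14 fell, among them LAMP2 (52.7 to 23.7 RPKM) and WIPI1 (5.14 to 1.21 RPKM), but 21 were higher and 9 lower on the TPM scale, 17 and 13 after centering, and 12 and 14 with the mitochondrially encoded genes left out. Proteasome and ubiquitin genes rose in 21 of 32 and fell in 4 (PSMB2, PSMD1, PSMD11 and PSMD12). UBB, a polyubiquitin gene, was at 323, 317 and 322 RPKM with PBS and 611 and 623 with phenformin. It rose, with a log2 change of 0.94, while the lid subunit PSMD12 fell (-1.35) and the core subunit PSMA7 was at 104 and 112 RPKM (limma, adjusted p = 0.134).

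Genes of the translation and splicing machinery rose on balance. Cytosolic ribosomal protein genes rose in 58 of 79 tested and fell in 8, with a median of 0.36. RPS12, the highest of them with phenformin, was at 574, 534 and 588 RPKM with PBS and 857 and 869.7 with phenformin. RPS27 was at 117, 104 and 115 RPKM with PBS and 295 and 311 with phenformin. Both were higher in each phenformin library (0.61 and 1.44), while RPS2 and RPS6 were at 449.7 and 465 RPKM and at 429 and 446 RPKM (limma, adjusted p = 0.79 and 0.436). The largest changes, in RPL36A, RPS3A and RPL9 (2.02, 1.87 and 1.52), belong to genes with processed pseudogenes, and reads may be shared with these, so they are uncertain. RPL36A passed only through the phenformin libraries. Of 33 genes of ribosome biogenesis 12 rose and 12 fell, but 22 were higher and 4 lower on the TPM scale and 19 and 11 after centering. Among the rises, TAF1D, a factor of RNA polymerase I and the host of several small nucleolar RNAs, went from 12.2 ± 0.324 to 54.8 ± 1.56 RPKM. Of 53 splicing genes 35 rose and 8 fell. DDX39B, a helicase of splicing and mRNA export, was at 10.8, 11.4 and 7.48 RPKM with PBS and 66.5 and 61.8 with phenformin. The kinases CLK1, CLK2 and CLK3, which phosphorylate SR proteins and control the splicing of their own transcripts, rose by 1.98, 1.86 and 1.48 on the log2 scale. SRSF1, an SR protein, was at 36.5, 33.6 and 36.5 RPKM with PBS and 106 and 106 with phenformin. It rose by 1.57, while SRSF6 and HNRNPK were at 60.8 and 57.7 RPKM and at 140.5 and 131 RPKM (limma, adjusted p = 0.14 and 0.097). Of 14 long noncoding RNAs 11 rose and 3 (PCAT1, TUG1 and OIP5-AS1) fell. The 8 that host small nucleolar RNAs in their introns all rose, and the spliced RNAs of several of them are degraded when translated. GAS5 was at 45.4, 42.9 and 48.2 RPKM with PBS and 125 and 127 with phenformin. ZFAS1, another host, was at 43.2, 44.5 and 44.99 RPKM with PBS and 125 and 125 with phenformin. The log2 changes were 1.47 and 1.4998, and the nuclear RNA MALAT1 rose from 123 ± 3.23 to 309 ± 1.09 RPKM.

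Cell cycle genes rose on balance, whereas cyclin D1 and cyclin E, which act at entry into the cycle, fell. Of 28 mitotic genes 22 rose and 0 fell. WEE1, the kinase that restrains entry into mitosis, was at 2.00, 1.95 and 2.15 RPKM with PBS and 16.6 and 16.8 with phenformin. CDC20, the activator of the anaphase-promoting complex, was at 24.5, 24.6 and 20.6 RPKM with PBS and 78.1 and 79.9 with phenformin. CDK1, the kinase of mitosis, was at 29.2, 28.4 and 29.4 RPKM with PBS and 67.9 and 70.00 with phenformin. The groups did not overlap in any of these, with log2 changes of 2.98, 1.77 and 1.25, while CENPF, KIF20A and BUB1B did not pass the test. Of 32 genes of DNA replication and E2F targets 23 rose and 4 fell (PCNA, POLA2, RFC4 and CCNE1). Without phenformin replicate 1, PCNA and POLA2 did not pass (adjusted p = 0.134 and 0.0995). All 6 MCM helicase genes rose, with MCM7 from 41.02 ± 1.48 to 82.1 ± 0.737 RPKM, and E2F1 rose from 11.2 to 24.1 RPKM, whereas CCNE1, cyclin E, fell from 3.83 to 1.52 RPKM. CCND1, cyclin D1, was at 31.5, 30.7 and 30.1 RPKM with PBS and 9.10 and 9.98 with phenformin. It fell, with a log2 change of -1.68 ± 0.06 (SE; limma, adjusted p = 5.4e-08). The kinase inhibitors CDKN1A, CDKN1B and CDKN2D rose by 0.86, 0.85 and 0.83 on the log2 scale, so that 3 genes of the cyclin D and inhibitor list rose and 3 (CCND1, CDK4 and RB1) fell of 9, and 6 were higher and 1 lower on the TPM scale. These bulk levels do not give the share of cells in a phase. Of 24 p53 targets 15 rose and 6 fell. GADD45A, a stress-induced growth arrest gene, was at 10.5, 9.64 and 11.5 RPKM with PBS and 66.6 and 74.1 with phenformin. The death receptor FAS was at 0.909, 0.852 and 0.938 RPKM with PBS and 7.46 and 7.92 with phenformin. TP53INP1, another p53 target, was at 2.70, 2.85 and 3.11 RPKM with PBS and 0.576 and 0.265 with phenformin. The first pair was higher and TP53INP1 lower in both phenformin libraries (2.73, 2.96 and -2.59). FAS passed only through the phenformin libraries, and without replicate 1 or 2 of these 13 and 14 p53 targets rose. Of 16 genes of the BCL2 family 9 rose and 6 fell, the rises including the pro-apoptotic BBC3 and PMAIP1 (2.32 and 1.44) and the anti-apoptotic MCL1 (1.18). MYC fell from 67.4 ± 1.41 to 45.04 ± 0.290 RPKM, and 6 of 9 genes of its network fell, MNT and MXI1, which oppose MYC, with log2 changes of -1.20 and -1.12, while 3 (MXD1, MXD3 and MGA) rose. MXD3 did not pass without PBS replicate 2 or 3 or phenformin replicate 2 (adjusted p = 0.0511 to 0.14).

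Targets of YAP and SRF and actin genes rose in 16 of 24 tested and fell in 1 (TAGLN). CYR61 and AMOTL2 passed only through the phenformin libraries and had to be higher. With either phenformin library left out, 14 of 22 rose, and the median change went from 0.88 to 0.69 and 0.66. CYR61, a secreted matrix protein, was at 0.846, 0.971 and 0.721 RPKM with PBS and 47.95 and 51.4 with phenformin. The focal adhesion gene ZYX was at 13.5, 13.3 and 11.8 RPKM with PBS and 86.9 and 90.5 with phenformin. SRF, the factor itself, was at 10.1, 10.1 and 8.72 RPKM with PBS and 40.1 and 42.1 with phenformin. All 3 rose, with log2 changes of 5.72, 2.78 and 2.08, while YAP1 was at 15.5 ± 0.939 RPKM with PBS and 15.9 ± 0.434 with phenformin (log2 change 0.04, limma, adjusted p = 0.529), and the targets CTGF and ANKRD1 were under the limit, at 0.0226 to 0.0560 RPKM with PBS and 0.311 to 0.614 with phenformin. TAGLN, which encodes transgelin, fell from 3.38 to 0.831 RPKM. The cytoskeletal actins ACTB and ACTG1 rose from 416 ± 10.6 to 852 ± 16.5 RPKM and from 283 ± 9.28 to 814 ± 27.6 RPKM and were among the 10 most abundant mRNAs with phenformin. Of 21 junction and keratin genes 5 rose (CTNNA1, KRT18, VIM, SNAI2 and KRT80, the last of which passed only through the phenformin libraries) and 11 fell, among them desmoplakin (DSP, 28.7 to 10.2 RPKM) and CLDN7 (50.7 to 25.1 RPKM), and SNAI2, a repressor of epithelial genes, went from 1.94 to 8.69 RPKM. CTNNA1 did not pass when PBS replicate 1 or 2 or either phenformin library was left out (adjusted p = 0.068 to 0.138). On the TPM scale 9 of the junction and keratin genes were higher and 11 lower. Of 21 histone genes that are expressed in S phase and mostly not polyadenylated, 8 were higher and 9 lower, and 9 and 6 on the TPM scale. Fewer of them were above the limit with either phenformin library left out, so the filter may have fixed some of these rises. Of 25 housekeeping genes 8 were higher and 11 lower, but 11 and 10 after centering, with GAPDH, PPIA and B2M not past the test and POLR2A, the largest subunit of RNA polymerase II, lower at 16.9 to 6.74 RPKM.

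**Figure D5:**
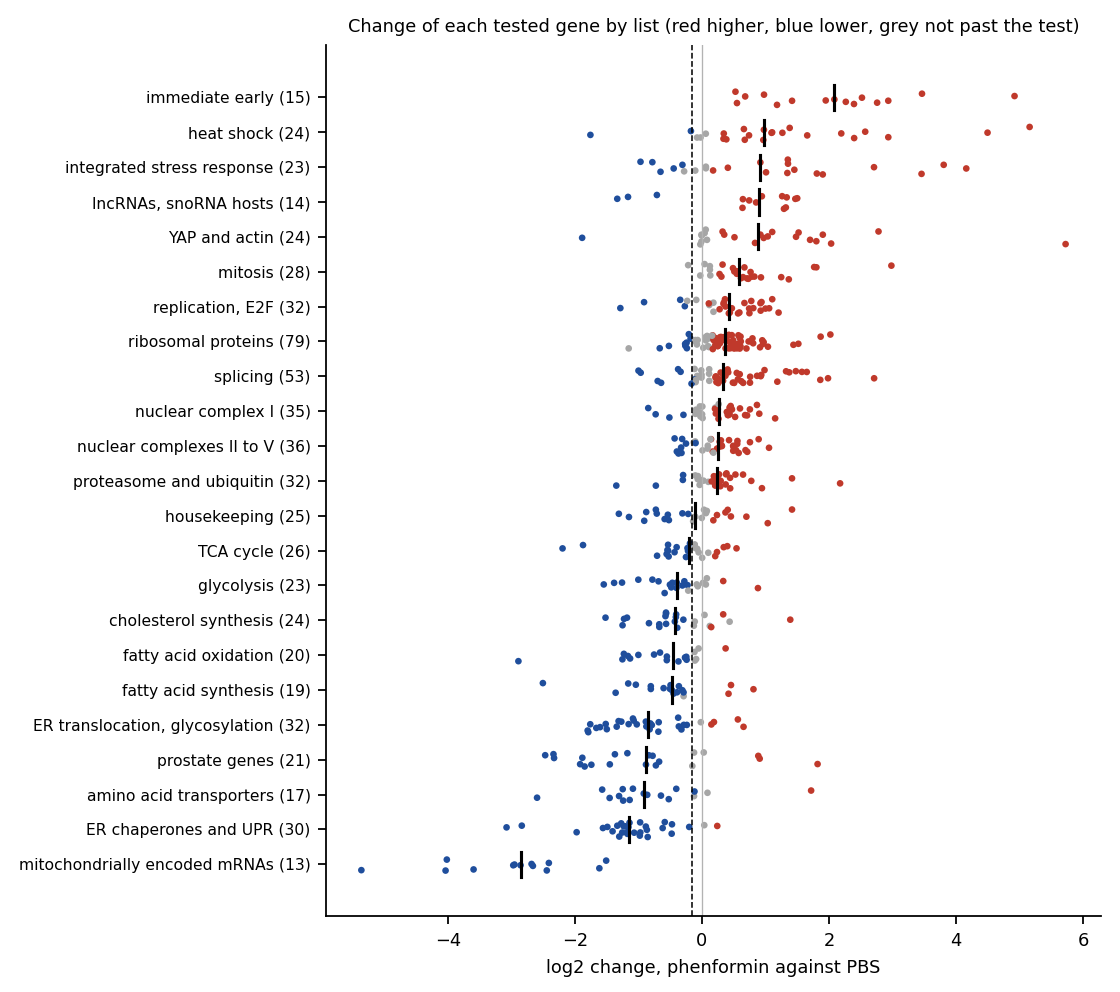
Log2 change (horizontal axis) of every tested gene of 23 gene lists (rows, with the number of genes tested), red where higher, blue where lower and grey where not past limma at an adjusted p under 0.05. Black bars mark list medians, the dashed line the median of all genes (-0.16) and the grey line no change. Medians run from -2.86 for the mitochondrially encoded mRNAs to 2.08 for the immediate early genes.

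Among the 15 largest rises and 15 largest falls of genes whose higher group reached 5 RPKM were several genes outside the lists. MIR663A was at 3.48, 2.07 and 4.48 RPKM with PBS and 102 and 146 with phenformin. ANKRD30BL was at 0.962, 0.818 and 1.13 RPKM with PBS and 25.7 and 33.5 with phenformin. The noncoding RP11-343H19.2 was at 0.973, 2.89 and 1.90 RPKM with PBS and 56.6 and 65.7 with phenformin. All 3 were higher in both phenformin libraries (5.21, 4.79 and 5.04). MIR663A is the symbol of the feature and is not a measure of the mature microRNA. C8orf4, a regulator of Wnt signaling, rose from 0.0664 ± 0.0157 to 5.68 ± 0.105 RPKM, but it passed only through the phenformin libraries and had to be higher. Among the falls, UFL1, the ligase that attaches the ubiquitin-like protein UFM1 and acts at the endoplasmic reticulum, was at 17.6, 17.8 and 18.7 RPKM with PBS and 1.44 and 1.49 with phenformin. SAMHD1, a dNTP hydrolase, was at 8.85, 9.09 and 8.62 RPKM with PBS and 0.737 and 0.866 with phenformin. HTRA1, a secreted serine protease, was at 9.84, 9.95 and 9.74 RPKM with PBS and 0.802 and 1.16 with phenformin. In each of these the groups did not overlap, with log2 changes of -3.53, -3.32 and -3.22. The glycosyltransferase gene B3GNT1, PCYOX1, which encodes prenylcysteine oxidase, and TM9SF2, a membrane protein of endosomes and the Golgi, fell from 11.7 to 1.09 RPKM, from 8.97 to 0.875 RPKM and from 46.9 to 5.08 RPKM. MIR22HG, the host transcript of a microRNA, fell from 7.43 ± 0.390 to 0.329 ± 0.0744 RPKM, and the transcribed pseudogene TMEM198B from 11.9 ± 0.540 to 0.659 ± 0.117 RPKM. The noncoding features RP11-846F4.12, RP11-162P23.2 and RP11-804A23.2 changed by -4.42, -3.74 and -3.39. No source used here says whether strand was used in counting, which leaves overlapping and antisense features uncertain.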

How the data were processed

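RNA-seq of C4-2 cells was deposited as 1 table of RPKM values per gene feature and library. Per the methods and the submitters' processing notes, the authors mapped reads with CLC Genomics Workbench to GRCh37.p13 and computed RPKM. Whole reads were recovered from the RPKM steps for 25529 of 25529 features above 0 (100% within 0.01 read) and give the depths and exon lengths. RPKM was tested as log2(RPKM + 0.1) with limma 3.58.1 in R 4.3.3 (trended eBayes, 8 libraries, 5 residual degrees of freedom, Benjamini-Hochberg adjustment over the 11999 genes). limma-voom on the recovered reads, which called 9485 genes, and the pseudocounts 0.01 and 1, other filters, scalings, a block and left-out libraries were alternatives. PBS replicate 1 was also reduced to the reads beyond replicates 2 and 3. The fit was tested on simulated reads with 194 of 11719 genes changed and 1 spread shared by all genes. Of its 182 calls 7.14% were false, and 79.6% of 1.5-fold and 94.8% of 2-fold changes were called. Far more genes passed in the real libraries, so these shares may not hold there.

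The members and the 48 gene lists were chosen with earlier results of these data known. Named genes were the 15 largest rises and falls, the 10 highest of each group, up to 6 called and 3 uncalled members of each list, the factors lists are named for, and the 10 genes that differed most between phenformin libraries. Members of counts of 5 or fewer, SLC39A6, SLC39A7, SLC39A10, CHORDC1, MT1A, MT1B, MT1DP and the genes named as under the limit were added after their values were seen. NDUFA7, NDUFB8, SDHD, UQCR11, PIK3R2, PSMA1, PSMA2 and PECAM1 were not used here. Promoters are from RefSeq (GRCh38.p14), with capitals set by exact matches. Some list members are counted but not reported here by name. All columns were mapped to samples.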

Additional observations from a re-analysis of the deposited data

How the results depend on the processing

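The count of genes called was 9238, and it was 8603 to 8971 in fits with 1 PBS library left out and 8198 and 8201 in fits with 1 phenformin library left out, each over its own genes above the limit, the remaining phenformin library being assumed to vary like the other groups. No pairing by replicate number was seen, as the deviations of same-numbered libraries from their group means correlated between -0.07 and 0.01. The deviations of the 2 phenformin libraries mirror each other, and whether same-numbered libraries shared a preparation was not tested. With replicate numbers as a block 8846 genes were called. A test against a 1.5-fold change called 3669 genes, 1273 higher and 2396 lower. With a mean of at least 5 RPKM required, 6827 genes were tested and 5454 called, of which 2861 were lower. The count was 8606 with PBS replicate 1 reduced, 9222 on the TPM scale (5211 higher and 4011 lower) and 9485 with limma-voom on the recovered reads.

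On the TPM scale the log2 change took the other sign for ACADVL (0.15), B2M (0.16), BUB1B (0.24), ECHS1 (0.21), HMGCS1 (0.15), HNRNPK (0.17), HSP90AB1 (0.24), HSPA4 (0.092), HSPA8 (0.19), PHGDH (0.22), PRKAB1 (0.10), PRKAG1 (0.031), SRP68 (0.25), SRSF6 (0.19) and TPI1 (0.18). Under quantile normalization it did so for LDHB (-0.14), MT-CO2 (0.17), MT-ND2 (0.61), PPIA (-0.10), PRKAB1 (0.012) and RPS6 (-0.13), and TMBIM4_1 was at 0.67 with PBS replicate 1 reduced. With 1 library left out SENP3-EIF4A1 ran from -0.99 to 0.67 and TGIF2-C20orf24 from -0.83 to 0.47, both positive without phenformin replicate 1. The cause was not tested. Over the 295 genes named and 20 alternatives, 5587 values had the same direction and call, 137 lost and 64 gained a call. Genes that passed only through the phenformin libraries could not be fitted without 1 of these. Among such genes were low metallothioneins, ID4, FOS, MAFF, CYR61, PPP1R15B, HSPB8, DUSP5, KRT80, RPL36A, FAS and C8orf4.

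Among the 5 libraries PBS replicate 2 had the fewest mapped reads (13837455) and phenformin replicate 2 the fewest reads on genes (10711542). With 2 phenformin libraries a small difference cannot be told from none, and values of overlapping features and near-identical copies are uncertain.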

Other observations

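The 3 libraries of cells exposed to 5 mM metformin for 24 h give values beside those of phenformin. Dose and compound differ together and both treatments share the PBS libraries, so the values are set side by side and not compared. MT-CO3 was at 722 ± 19.96 RPKM with metformin (SD, n = 3) and at a mean of 176 with phenformin. MT-CO1 was at 6542 ± 308 RPKM with metformin and at a mean of 747 with phenformin. The share of mapped reads on the 13 mitochondrially encoded mRNAs was 2.42%, 2.49% and 2.60% in the metformin libraries. MT2A was at 169.7 ± 33.5 RPKM with metformin and at a mean of 1602 with phenformin. HSPA1B was at 1449 ± 58.05 RPKM with metformin, JUN at 162 ± 6.70 and DDIT3 at 335 ± 29.6. HSPA5 was at 386 ± 17.1 RPKM with metformin and at a mean of 139 with phenformin. KLK3 was at 80.1 ± 5.42 RPKM with metformin and CCND1 at 5.08 ± 0.200. C8orf4 was at 40.2 ± 7.79 RPKM with metformin and at a mean of 5.68 with phenformin. The median log2 change against PBS was -0.35 with metformin and 0.26 with phenformin for nuclear complex I genes, -0.18 and 0.36 for ribosomal protein genes, 0.05 and 0.90 for long noncoding RNAs, and -0.06 and 0.43 for replication genes.

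The 10 genes that differed most between the phenformin libraries, among those with a mean of at least 5 RPKM, included several features whose symbols join 2 genes. Reads of such a feature may be shared with its parent genes. SENP3-EIF4A1 was at 16.4 and 52.1 RPKM in phenformin replicates 1 and 2, and at 36.6, 36.8 and 25.8 in the PBS libraries. NME2, a nucleoside diphosphate kinase, was at 64.8 and 27.9 RPKM with phenformin and at 81.4 to 87.9 with PBS. VASN, RP11-97O12.7, CTD-3214H19.16, ABHD14A-ACY1, RP11-20I23.1, TGIF2-C20orf24, GAGE12I and TMBIM4_1 made up the rest. Of the 10, RP11-97O12.7, RP11-20I23.1, NME2 and TMBIM4_1 fell and the others did not pass the test. RP11-20I23.1 did not pass without PBS replicate 1, 2 or 3 or phenformin replicate 1 (limma, adjusted p = 0.0507 to 0.295), and TMBIM4_1 did not without phenformin replicate 2 (-0.77 on the log2 scale, adjusted p = 0.051), while SENP3-EIF4A1 and TGIF2-C20orf24, at -0.16 and -0.18 on the log2 scale with both libraries, were higher by 0.67 and 0.47 on the log2 scale without phenformin replicate 1 (limma, adjusted p = 0.0366 and 0.0195).

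Among genes with a PBS mean of at least 20 RPKM, sorted into 5 bins by the recovered exon length, the median log2 change with phenformin ran from 0.11 in the 373 shortest genes (207 to 1935 bases) to -0.35 in the 372 longest (5739 to 17373 bases). Over all 11999 genes the medians of such bins did not fall steadily with length. The Spearman correlation between length and change was -0.01 across genes, which are not independent replicates. This division was chosen after seeing the data. In such bins of all genes, 29.3% of the shortest genes were higher and 39.4% lower, against 30.2% and 49.3% of the longest. Several lists that rose hold many short genes, with 17 of 35 nuclear complex I genes and 25 of 79 ribosomal protein genes in the shortest of 5 such bins of all genes, whereas others that rose hold few, with 4 of 28 mitotic, 4 of 32 replication and 8 of 53 splicing genes. The median difference of members from the median of all genes in their own bin was 0.40 for complex I and 0.51 for ribosomal protein genes. It was 0.75 for mitotic, 0.54 for replication and 0.46 for splicing genes. The part of length in their change was not tested.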
